A study of Mus musculus with 12 samples.

Results

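The genes described here are 8 genes of the transforming growth factor β (TGF-β) pathway that carry its signal or act back on it, out of the 39179 genes of the count table. They were taken by symbol: *Smad2*, *Smad3*, *Smad7*, *Pmepa1*, *Ski*, *Skil*, *Tgif1* and *Tgfbi*, each found once. Pancreatic stellate cells (PSCs), the fibroblast-like cells of the pancreas, were grown for 72 h alone (mono-PSCs), with pancreatic cancer cells (PCCs; 2W-PSCs), or with PCCs and macrophages (MØs; 3W-PSCs). The PSCs were an SV40-immortalised C57BL/6 mouse line derived from 1 clone and labelled with mCherry, the PCCs an EGFP-labelled mouse line, and the MØs the RAW264.7 mouse macrophage line labelled with TagBFP. No TGF-β or other agent was listed as added, and all cultures held the same total number of cells in low-serum medium, so PSCs in co-culture were fewer at seeding. After sorting for mCherry and against EGFP and TagBFP, 4 replicate cultures per condition were sequenced by a 3′ tag method (QuantSeq), which gives about 1 fragment per transcript. Total counts were 5286963 to 8093368 in mono-PSCs, 4561817 to 6907711 for 2W-PSCs and 7205488 to 8061367 for 3W-PSCs.

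TGF-β binds a pair of receptor kinases at the cell surface, which phosphorylate the receptor-regulated SMADs, SMAD2 and SMAD3. These join SMAD4, enter the nucleus and switch on target genes, several of which encode brakes on the same pathway. In the pancreas TGF-β is known for turning stellate cells into contractile, matrix-depositing myofibroblasts, which are a main source of the fibrous stroma of pancreatic tumours. In the list, *Smad2* and *Smad3* encode the signal carriers, *Smad7* and *Pmepa1* encode inhibitors that act near the receptor, *Ski*, *Skil* and *Tgif1* encode nuclear co-repressors, and *Tgfbi* encodes a secreted matrix protein induced by TGF-β.

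The summed level of 12 fibroblast markers was 4913 to 9234 CPM (counts relative to the scaled library total) in mono-PSCs, 8401 to 8710 for 2W-PSCs and 5437 to 6467 for 3W-PSCs. Most of it came from *Col1a1*, *Col1a2* and *Vim*. Close to undetected were *Lum* (at most 7 counts) and *Des* (at most 25 counts). *Fap* was as low in mono-PSCs and 3W-PSCs (means of 0.308 and 0.328 CPM) and stood at 4.95 CPM in 2W-PSCs. Of 13 macrophage markers, 7 were detected in mono-PSCs, 7 in 2W-PSCs and 12 in 3W-PSCs. Their summed level was 10.2 to 13.4, 12.4 to 17.5 and 31.3 to 69.6 CPM in the 3 cultures, with the pan-leukocyte gene *Ptprc* at 0 in mono-PSCs and 2W-PSCs and *Emr1* at 0 throughout. *Cd14*, found also where no MØs were added, had the highest mean of the 13 in each culture (6.43, 8.69 and 22.8 CPM). *Laptm5* was at 0 in mono-PSCs and 2W-PSCs and had a mean of 2.69 CPM in 3W-PSCs. Of 13 epithelial markers, 8, 9 and 11 were detected, and the sum was 1.21 to 3.34 CPM for mono-PSCs, 75.8 to 150 for 2W-PSCs and 54.9 to 92.9 for 3W-PSCs. In the co-cultures it came mostly from *Krt18*, *Krt7*, *Krt19*, *Cdh1* and *Krt8*. *Cldn4* was at 0 throughout. *Epcam*, *Cldn7* and *Esrp1* were at 0 in 2W-PSCs and had means of at most 0.160 CPM in 3W-PSCs. The means of *Ocln* and *Elf3* were at most 0.681 CPM in any culture. The part of macrophage or PCC RNA in the differences given below was not tested. The 2W library of replicate 2 stood apart, with rank correlations to the other 2W libraries of 0.858 to 0.920, against 0.948 to 0.987 for the other pairs within a culture, and the values that rest on it are given with and without it.

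Of the 8 genes, 7 had enough counts to be tested in each comparison, and *Tgfbi* did not. In 2W-PSCs against mono-PSCs, 2 of the 7 were called higher (adjusted p under 0.05 in edgeR's quasi-likelihood test over all genes) and none lower, where 0.991% of all 11199 genes tested were called and 0.839% were called higher. In 3W-PSCs against mono-PSCs, 5 of the 7 were called higher and 1 lower, where 26.4% of 11551 genes were called and 13.4% were called higher. In 3W-PSCs against 2W-PSCs, 1 of the 7 was called, as higher, where 10.7% of 11513 genes were called and 5.73% were called higher. At an unadjusted p under 0.05, edgeR placed 0 of the 7 lower in the first comparison and 1, *Smad2*, in the last, and DESeq2 called 0 lower in both. The median log2 fold change of the 7 genes was 0.36, 1.35 and 0.12 in these comparisons, beside 0.02, 0.01 and 0.003 over all genes tested. The comparisons share libraries in pairs, so their values are set side by side and are not independent of each other. The 8 genes, and the lists of pathway genes given below, were chosen with earlier results of these data known. Their shares of calls beside those of all genes are therefore a description and not a test.

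**Figure D1:**
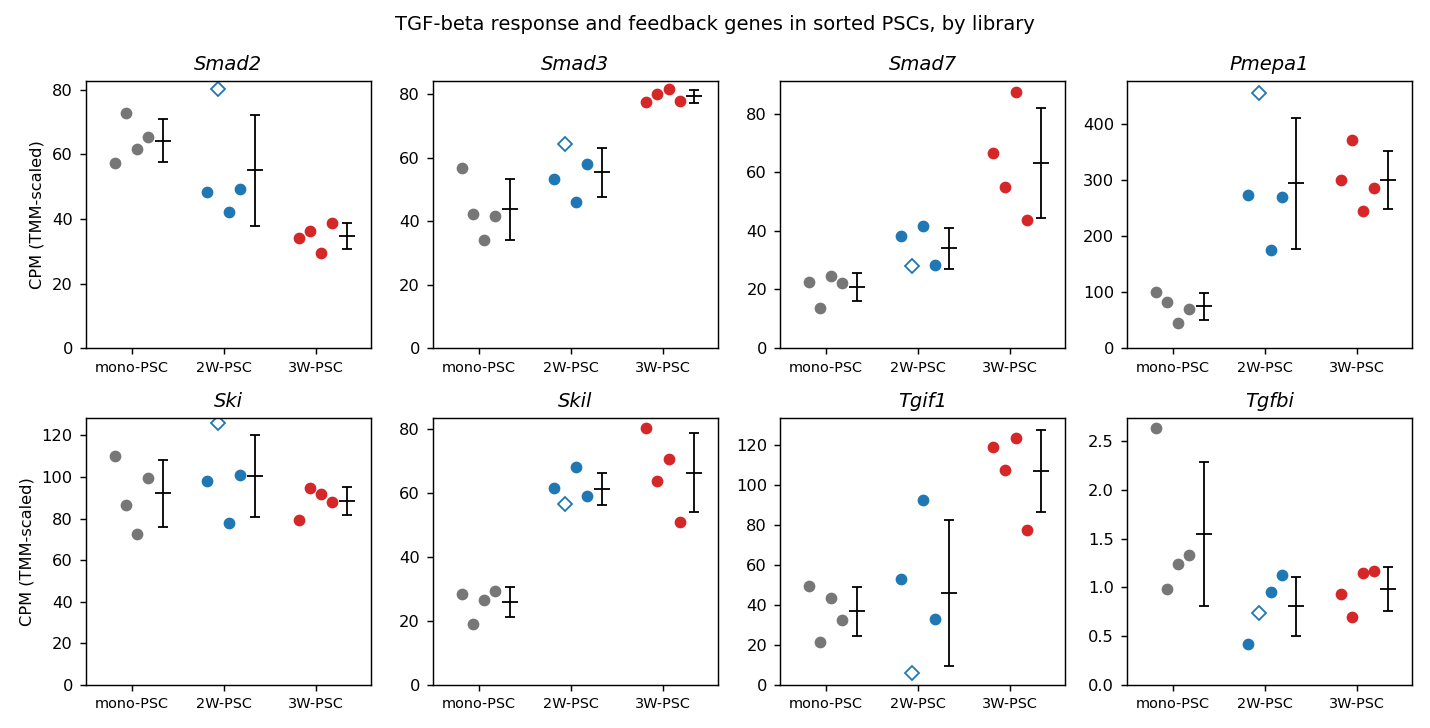
Level of each gene in CPM (linear axis from 0) in the 4 libraries of each culture, with the mean and SD as a black bar. The open diamond is replicate 2 of 2W-PSCs, the library that stood apart. *Pmepa1* and *Skil* lie above all mono-PSC values in both co-cultures. All 3W-PSC libraries are above all others for *Smad7* and *Smad3*, and below all others for *Smad2*. *Tgif1* has its highest mean in 3W-PSCs, where its range overlaps that of 2W-PSCs.

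Of the inhibitors that act near the receptor, *Pmepa1* had the largest rise. It encodes a membrane protein that binds receptor-regulated SMADs and keeps them from the receptor, and is itself a TGF-β target. The gene lies on chromosome 2 (GRCm38, 173224458 to 173276533, minus strand). In mono-PSCs its level was 100.6, 83.0, 44.6 and 70.1 CPM in replicates 1 to 4. In 2W-PSCs it was 274, 457, 176 and 270 CPM. In 3W-PSCs it was 300.4, 371, 246 and 286 CPM. Every co-culture library lay above every mono-PSC library, whereas 2W-PSCs and 3W-PSCs overlapped. The mean rose from 74.6 ± 23.6 CPM in mono-PSCs to 294 ± 117 in 2W-PSCs (SD, n = 4 each), a 3.99-fold difference, with a log2 fold change of 2.00 (SE 0.316, adjusted p = 0.00776). Without replicate 2 of 2W-PSCs, where *Pmepa1* was highest, the log2 fold change was 1.69 (adjusted p = 0.000842). In 3W-PSCs the mean was 301 ± 52.2 CPM, and *Pmepa1* rose 4.02-fold over mono-PSCs (log2 fold change 2.01, SE 0.214, adjusted p = 2.25e-06). Between 3W-PSCs and 2W-PSCs the log2 difference was 0.03 with a 95% interval of -0.54 to 0.61, and it was 0.33 without the library that stood apart (adjusted p = 0.230).

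*Smad7*, on chromosome 18, encodes the inhibitory SMAD that occupies the activated receptor and brings ubiquitin ligases to it. Its level was 22.6, 13.7, 24.7 and 22.3 CPM in mono-PSCs. The 2W-PSC libraries had 38.3, 28, 41.6 and 28.3 CPM, and the 3W-PSC libraries 66.5, 54.8, 87.4 and 43.6 CPM. The ranges of the 3 cultures did not overlap, so that *Smad7* stood in the order mono-PSCs, 2W-PSCs, 3W-PSCs. The step from mono-PSCs to 2W-PSCs was not called (log2 fold change 0.72, SE 0.252, 95% interval 0.18 to 1.27, adjusted p = 0.370). In 3W-PSCs *Smad7* rose 3.01-fold over mono-PSCs, from 20.8 ± 4.86 to 63.1 ± 18.7 CPM (log2 fold change 1.59, SE 0.228, adjusted p = 6.1e-05). *Smad7* was also the gene called in 3W-PSCs against 2W-PSCs, with a 1.86-fold rise (log2 fold change 0.89, SE 0.238, adjusted p = 0.0374). That call was lost without replicate 1 (adjusted p = 0.0610) or 4 (0.115) of 2W-PSCs, and without replicate 1 (0.100), 2 (0.0781) or 3 (0.107) of 3W-PSCs, while the log2 fold change stayed between 0.70 and 1.03 over the 8 fits that each left out 1 library.

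The nuclear co-repressors did not move alike. *Skil* encodes SnoN, which represses SMAD complexes on DNA and is a TGF-β target itself (chromosome 3, 31095058 to 31122577, plus strand). *Skil* had 28.3, 19.0, 26.6 and 29.3 CPM in mono-PSCs. It had 61.5, 56.7, 68.1 and 59.1 CPM in 2W-PSCs, and 80.5, 63.8, 70.5 and 50.8 CPM in 3W-PSCs. As for *Pmepa1*, all co-culture libraries were above all mono-PSC libraries, and the 2 co-cultures overlapped. *Skil* rose 2.40-fold in 2W-PSCs, from 25.8 ± 4.66 to 61.4 ± 4.94 CPM (log2 fold change 1.26, SE 0.203, adjusted p = 0.00834), and this was 1.28 on the log2 scale without the library that stood apart (adjusted p = 0.00186). In 3W-PSCs, at 66.4 ± 12.5 CPM, it rose 2.55-fold over mono-PSCs (log2 fold change 1.35, SE 0.190, adjusted p = 4.8e-05). The log2 difference between 3W-PSCs and 2W-PSCs was 0.12, with a 95% interval of -0.27 to 0.50.

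*Ski*, the relative of *Skil* that also binds and represses SMAD complexes (chromosome 4, 155154075 to 155222592, minus strand), was called in no comparison, with edgeR or DESeq2, and its unadjusted p was 0.506, 0.685 and 0.313 in edgeR. Its libraries had 110, 86.4, 72.4 and 99.7 CPM in mono-PSCs, 98.1, 126, 77.7 and 101 CPM in 2W-PSCs, and 79.3, 94.8, 91.6 and 88.2 CPM in 3W-PSCs. All 3 ranges overlapped. The log2 fold change was 0.14 in 2W-PSCs (95% interval -0.31 to 0.59) and -0.06 in 3W-PSCs (-0.40 to 0.27) against mono-PSCs, and -0.18 between 3W-PSCs and 2W-PSCs (-0.56 to 0.20). These intervals leave out a 2-fold change of *Ski* in either direction, which was the scale of the change of *Skil*.

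*Tgif1* encodes a homeodomain protein that competes with co-activators for SMAD2 and SMAD3 (chromosome 17, 70844205 to 70853546, minus strand). Its level was 49.5, 21.5, 43.3 and 32.4 CPM in mono-PSCs. In 2W-PSCs it varied more, with 52.7, 5.89, 92.5 and 33.1 CPM. In 3W-PSCs it was 119, 108, 123 and 77.6 CPM. The lowest value of *Tgif1*, 24 counts, was in the 2W library that stood apart, and the 2W range spanned that of mono-PSCs and reached into that of 3W-PSCs. *Tgif1* rose 2.90-fold in 3W-PSCs against mono-PSCs, from 36.7 ± 12.3 to 107 ± 20.6 CPM (log2 fold change 1.53, SE 0.225, adjusted p = 7.3e-05). The log2 difference between 2W-PSCs and mono-PSCs was 0.35, with a 95% interval of -0.84 to 1.54. The one between 3W-PSCs and 2W-PSCs was 1.21 (SE 0.538, adjusted p = 0.179). Without replicate 2 of 2W-PSCs the latter was 0.85 with an adjusted p of 0.0376, and without replicate 3, the highest 2W library, it was 1.79 with an adjusted p of 0.0475.

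**Figure D2:**
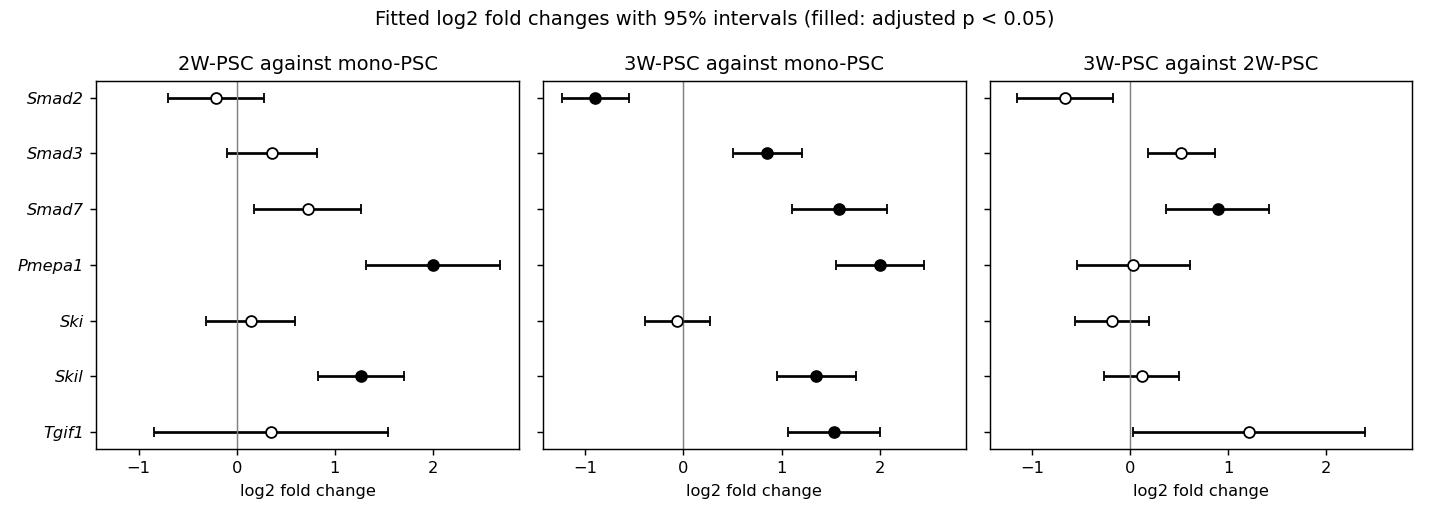
Fitted log2 fold change (x axis) of the 7 genes tested, with 95% intervals as bars, in the 3 comparisons. Filled points have an adjusted p under 0.05: *Pmepa1* and *Skil* on the left, all but *Ski* in the middle, and *Smad7* on the right.

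The signal carriers moved in opposite directions in 3W-PSCs. *Smad3*, which binds DNA directly (chromosome 9, 63646767 to 63757994, minus strand), had 56.7, 42.3, 34.1 and 41.5 CPM in mono-PSCs. It had 53.2, 64.3, 45.9 and 58.1 CPM in 2W-PSCs and 77.4, 80.0, 81.7 and 77.9 CPM in 3W-PSCs. All 3W-PSC libraries were above all others, and their values were within a narrow range. *Smad3* rose 1.81-fold in 3W-PSCs over mono-PSCs, from 43.6 ± 9.46 to 79.3 ± 1.97 CPM (log2 fold change 0.85, SE 0.168, adjusted p = 0.00109). Against 2W-PSCs the log2 fold change was 0.52 (SE 0.156, adjusted p = 0.0552), and it was 0.60 with an adjusted p of 0.00900 without the 2W library that stood apart. In 2W-PSCs against mono-PSCs it was 0.36 (95% interval -0.10 to 0.81), and those cultures overlapped.

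*Smad2*, on chromosome 18, had 57.2, 72.9, 61.6 and 65.5 CPM in mono-PSCs. It had 48.3, 80.2, 42.2 and 49.4 CPM in 2W-PSCs, where replicate 2 was the highest library of the series. In 3W-PSCs it had 34.1, 36.4, 29.4 and 38.7 CPM, below every other library. *Smad2* fell in 3W-PSCs from 64.3 ± 6.63 to 34.7 ± 3.98 CPM (log2 fold change -0.90, SE 0.160, adjusted p = 0.000498). Its log2 difference between 3W-PSCs and 2W-PSCs was -0.66 (SE 0.222, adjusted p = 0.0831), and without replicate 2 or replicate 3 of 2W-PSCs it was -0.43 (adjusted p = 0.0804) or -0.78 (0.0486). In 2W-PSCs against mono-PSCs it was -0.21 (95% interval -0.70 to 0.28), and -0.46 without replicate 2 (adjusted p = 0.342).

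Because the pair differ in sign, the ratio of their counts within each library was taken, a measure chosen after the values were seen and therefore given as a description, with no test. It needs no scaling between libraries, and only its change between cultures is read, since the counts of a pair of genes do not give the ratio of their proteins. The *Smad3* to *Smad2* ratio was 0.991, 0.581, 0.553 and 0.634 in mono-PSCs, 1.10, 0.801, 1.09 and 1.18 in 2W-PSCs, and 2.27, 2.20, 2.78 and 2.01 in 3W-PSCs. All 3W-PSC libraries were above 2, and only 2W-PSCs and mono-PSCs overlapped. In 3W-PSCs the ratio was 3.43-fold that of mono-PSCs and 2.23-fold that of 2W-PSCs, a separation that the levels of the pair given above already fix. Between 2W-PSCs and mono-PSCs the ratio differed 1.54-fold.

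*Tgfbi* (chromosome 13, 56609523 to 56639562, plus strand) was close to the limit of detection. Its libraries held 15, 5, 7 and 11 counts in mono-PSCs, 3, 3, 6 and 7 in 2W-PSCs, and 7, 6, 9 and 9 in 3W-PSCs, or 0.422 to 2.63 CPM in all, and every pair of cultures overlapped. Fitted without the filter on low counts, its log2 fold change was -0.94 in 2W-PSCs (SE 0.869) and -0.64 in 3W-PSCs (SE 0.788) against mono-PSCs, so a difference was not detectable at this depth. In the same libraries *Pmepa1* had 251 to 3207 counts and *Skil* 97 to 606.

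Two-sided exact permutation tests of log2 CPM were also run gene by gene, 24 tests over 8 genes and 3 comparisons. Of these, 12 reached 0.0286, the smallest p that 4 against 4 libraries allow, and each was 0.0571 after adjustment over the 24. They were the 3 non-overlapping genes of 2W-PSCs against mono-PSCs (*Pmepa1*, *Skil*, *Smad7*), 6 of 3W-PSCs against mono-PSCs and 3 of 3W-PSCs against 2W-PSCs (*Smad7*, *Smad3*, *Smad2*). Over all genes tested, 5.73%, 25.9% and 21.3% did not overlap in these comparisons, and the shares called were those given above. In 3W-PSCs, replicate 4 was the lowest library for *Smad7*, *Skil* and *Tgif1*. It was also the library with the highest macrophage marker sum, 69.6 CPM against 31.3 to 36.7 in the other 3. For *Pmepa1* and *Smad3*, also called higher against mono-PSCs, the lowest 3W-PSC libraries were replicate 3 (246 CPM) and replicate 1 (77.4 CPM). A link of these levels to macrophage RNA was not tested. The calls of *Smad7*, *Skil* and *Tgif1* against mono-PSCs were kept without replicate 4 of 3W-PSCs. In bulk RNA, a shift in the share of PSCs expressing a gene and a shift in the RNA per cell cannot be told apart.

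**Figure D3:**
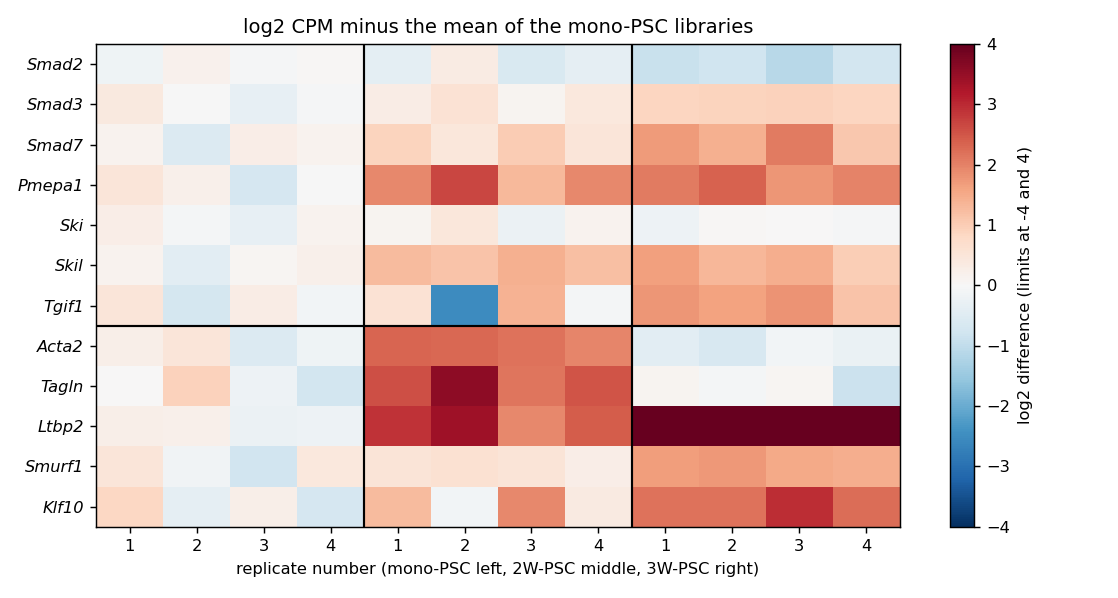
Log2 CPM of each library minus the mean of the mono-PSC libraries, with red for higher and blue for lower, for the 7 genes tested (above the line) and 5 other genes of the pathway (below it). Colour is limited at -4 and 4. *Tgif1* stands at -2.51 in replicate 2 of 2W-PSCs, and *Acta2* and *Tagln* are red in 2W-PSCs but not in 3W-PSCs, unlike *Pmepa1* and *Skil*.

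Promoters from RefSeq on GRCm38 (windows of 300 bases that end 50 bases after a start site) were given for 4 of the 8 genes, *Smad3*, *Ski*, *Tgif1* and *Tgfbi*. They were searched on both strands for the palindromic SMAD binding element GTCTAGAC, held by 0.213% of all 32851 promoters of this length, and for the CAGA box CAGACA, held by 21%. Neither was found in the promoter of *Smad3*, *Ski* or *Tgfbi*. Of 5 promoters of *Tgif1*, 2 held the CAGA box, in 1 at position -201 from the start on the strand of the gene and in the other at -60 on the reverse strand, and none held the palindrome. The start used for -201 did not match the start of a GENCODE transcript of the gene, while that used for -60 did. A gene with 5 windows has more chances of a match, and by gene 23.6% of 27025 held a CAGA box in any window. The *Tgif1* windows with a match are shown, with the *Smad3* window as the called gene without one. Capitals mark the match, read 5′ to 3′ on the strand of the gene, and a match is a description of the letters and not of binding.
Tgif1, chr17:70853483-70853782, minus strand: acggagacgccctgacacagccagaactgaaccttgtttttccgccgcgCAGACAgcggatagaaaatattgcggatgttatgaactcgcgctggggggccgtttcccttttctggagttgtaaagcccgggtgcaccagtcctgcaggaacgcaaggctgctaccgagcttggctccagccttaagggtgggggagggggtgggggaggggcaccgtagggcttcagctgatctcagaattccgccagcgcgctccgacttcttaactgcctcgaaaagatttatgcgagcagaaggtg
Tgif1, chr17:70851685-70851984, minus strand: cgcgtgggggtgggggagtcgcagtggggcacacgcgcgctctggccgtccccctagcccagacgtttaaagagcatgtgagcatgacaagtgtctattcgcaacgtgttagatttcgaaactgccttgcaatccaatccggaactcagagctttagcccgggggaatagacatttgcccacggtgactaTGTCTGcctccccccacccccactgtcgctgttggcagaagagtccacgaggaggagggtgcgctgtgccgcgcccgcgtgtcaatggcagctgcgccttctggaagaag
Smad3, chr9:63757945-63758244, minus strand: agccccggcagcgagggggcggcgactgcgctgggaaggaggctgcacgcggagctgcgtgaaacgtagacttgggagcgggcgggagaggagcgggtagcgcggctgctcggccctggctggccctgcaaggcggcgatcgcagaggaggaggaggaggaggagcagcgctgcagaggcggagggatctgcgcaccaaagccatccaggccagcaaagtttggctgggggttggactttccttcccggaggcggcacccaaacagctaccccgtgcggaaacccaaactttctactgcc

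The genes whose profile over the 12 libraries lay closest to that of each called gene were found by the root mean square difference of log2 CPM, each profile centred on its own mean, among 8700 genes. For *Pmepa1* they were *Rftn1* (0.35), *Plxdc2* (0.36) and *Pcdh9* (0.40). For *Skil* they were *Ltbp3* (0.16), *Fblim1* (0.24) and *Hbegf* (0.25). *Smad7* lay closest to *Trib1* (0.23), *Pim1* (0.25) and *Sgk1* (0.27). *Tgif1* lay closest to *Acvr1* (0.22), *Lgmn* (0.22) and *Slc25a5* (0.22). *Smad3* lay closest to *Nrip1*, *Ankrd50* and *Elk3* (0.11, 0.11 and 0.12), and *Smad2* to *Stub1*, *Rilpl1* and *Pafah2* (0.11, 0.13 and 0.13). Small distances come more easily to genes that vary little, and the profiles of *Smad2* and *Smad3* had SDs of 0.46 and 0.42 on the log2 scale, against 1.07 for *Pmepa1* and 1.24 for *Tgif1*.

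Around the 8 genes, the supply of ligand and receptor was described by 20 genes. In 2W-PSCs against mono-PSCs, 2 of the 15 tested rose and none fell (median log2 fold change 0.62), in 3W-PSCs against mono-PSCs 10 of 17 rose and 1 fell (0.88), and in 3W-PSCs against 2W-PSCs 6 of 18 rose and 1 fell (0.35). The shares called were 13.3%, 64.7% and 38.9%, beside the shares of all genes given above. Among the genes that rose was *Ltbp2*, a matrix protein of the family of latent TGF-β binding proteins that does not itself bind latent TGF-β. It went from 1.33 ± 0.287 CPM in mono-PSCs to 10.5 ± 4.61 in 2W-PSCs and 66.9 ± 17.8 in 3W-PSCs, and was called in each comparison (log2 fold changes 2.99, 5.66 and 2.69). *Ltbp3*, which binds latent TGF-β and is the gene closest in profile to *Skil*, rose from 57.8 ± 9.95 to 129 ± 3.07 CPM in 2W-PSCs, and in 3W-PSCs was at 142 ± 6.75 CPM. *Ltbp1* rose in 3W-PSCs against both other cultures (log2 fold changes 2.09 and 1.03), as did *Lrrc32*, which tethers latent TGF-β to the cell surface (2.64 and 1.93). *Tgfbr3*, the co-receptor betaglycan, rose in 3W-PSCs against 2W-PSCs (1.57). The ligand genes differed in direction. *Tgfb2* fell in 3W-PSCs to 15.6 ± 2.28 CPM, from 24.2 ± 3.64 in mono-PSCs (log2 fold change -0.64) and 35.9 ± 8.79 in 2W-PSCs (-1.20). The genes that follow were named after their values were seen. *Tgfb3* rose in 3W-PSCs against mono-PSCs (0.88, adjusted p = 0.0364), from 6.96 ± 2.98 to 12.8 ± 2.19 CPM. Its mean was highest in 2W-PSCs, at 16.2 ± 8.87 CPM. Neither 2W-PSCs against mono-PSCs (1.24) nor 3W-PSCs against 2W-PSCs (-0.35) was called for it. In 3W-PSCs the activin and inhibin subunit gene *Inhbb* rose against mono-PSCs (2.13) and 2W-PSCs (2.41). So did the activin receptor gene *Acvr1b* (2.30 and 2.21), both at low levels. *Tgfb1* was called in no comparison, with means of 4.51 CPM in mono-PSCs, 5.99 in 2W-PSCs and 7.10 in 3W-PSCs. The receptor gene *Tgfbr1* was called only in 3W-PSCs against mono-PSCs, where it rose (1.10, adjusted p = 0.00493). The receptor gene *Tgfbr2* was called in no comparison. Its log2 fold change against mono-PSCs was -0.94 in 2W-PSCs and -0.50 in 3W-PSCs, and 0.46 in 3W-PSCs against 2W-PSCs.

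Of 23 other genes for SMADs, their ubiquitin ligases, phosphatases and co-factors, none of the 22 tested was called by edgeR in 2W-PSCs against mono-PSCs (median log2 fold change 0.05), while 1 was higher at an unadjusted p under 0.05 and DESeq2 called 1. In 3W-PSCs, 4 of 23 rose and 2 fell against mono-PSCs (0.24), and 2 of 23 rose and none fell against 2W-PSCs (0.16). These are 26.1% and 8.70% of the list, near the 26.4% and 10.7% of all genes called. *Smurf1*, a ubiquitin ligase that works with SMAD7 at the receptor, rose in 3W-PSCs from 24.3 ± 8.80 CPM in mono-PSCs to 70.2 ± 6.59 (log2 fold change 1.52, adjusted p = 7.9e-05), and against 2W-PSCs by 1.13 (adjusted p = 0.00179). *Ep300*, which encodes an acetyltransferase that serves as SMAD co-activator, rose by 0.58 in both comparisons (adjusted p = 0.0349 and 0.0256). The ligase genes *Stub1* and *Nedd4l* fell against mono-PSCs (log2 fold changes -0.70 and -0.64), *Stub1* being the gene closest in profile to *Smad2*.

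Of 34 genes known to respond to TGF-β in fibroblasts, 30 were tested in each comparison. In 2W-PSCs 3 rose and none fell against mono-PSCs (median log2 fold change 0.49), in 3W-PSCs 12 rose and 2 fell against mono-PSCs (0.43), and 4 rose and 7 fell against 2W-PSCs (0.04). The shares called were 10%, 46.7% and 36.7%. The 3 genes of 2W-PSCs were *Acta2* and *Tagln*, which encode contractile proteins of myofibroblasts, and the integrin gene *Itgb5* (0.93). *Acta2* was at 139 ± 42.7 CPM in mono-PSCs, 616 ± 73.0 in 2W-PSCs and 105 ± 15.8 in 3W-PSCs, and *Tagln* at 11.5 ± 6.06, 75.2 ± 36.4 and 9.54 ± 2.62. Both rose in 2W-PSCs (2.16 and 2.73) and both were lower in 3W-PSCs than in 2W-PSCs (log2 fold changes -2.55 and -2.97), where the difference of *Pmepa1* and *Skil* was 0.03 and 0.12. The collagen gene *Col3a1* and the protease inhibitor gene *Timp3* fell in 3W-PSCs against mono-PSCs (-1.95 and -1.29) and against 2W-PSCs (-1.74 and -1.12). The transcription factor genes *Snai1* and *Klf10* rose in 3W-PSCs against mono-PSCs (2.89 and 2.34), as did *Timp1* (2.33) and the matrix gene *Postn* (2.32). The 4 response genes called higher against 2W-PSCs were *Timp1* (1.68), *Klf10* (1.36), *Junb* (1.30) and the cell cycle inhibitor gene *Cdkn1a* (1.28), while *Snai1*, at 1.72, was not called (adjusted p = 0.0765).

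**Figure D4:**
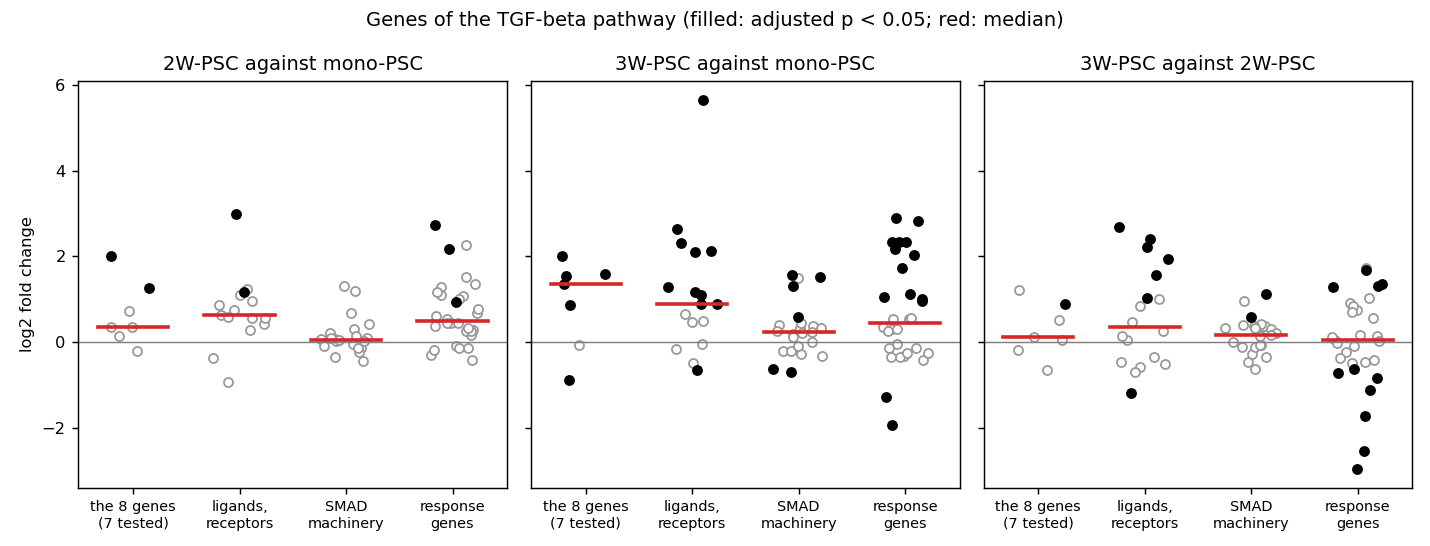
Log2 fold change (y axis) of every gene tested among the 8 genes and the 3 pathway lists, in the 3 comparisons, with filled points for an adjusted p under 0.05 and a red line for the median. The response genes spread to both sides in 3W-PSCs against 2W-PSCs, where 4 rose and 7 fell, while of the 7 genes 1 was called.

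Without replicate 2 of 2W-PSCs, calls over all genes went from 111 to 233 (2.03%) in 2W-PSCs against mono-PSCs and from 1230 to 2107 (18%) in 3W-PSCs against 2W-PSCs, so more calls were made in general. In these fits the ligand and receptor list had 4 rises against mono-PSCs and, in 3W-PSCs against 2W-PSCs, 6 rises and 2 falls. The SMAD list had 0 and 4 rises with no fall, and the response list 6 rises in 2W-PSCs, and 8 rises and 9 falls in 3W-PSCs against 2W-PSCs. Lists with no fall were also counted at an unadjusted p under 0.05 in edgeR, in the fits with all libraries kept. There, 1 ligand or receptor gene and 0 response genes were lower in 2W-PSCs against mono-PSCs. In 3W-PSCs against 2W-PSCs, 1 gene of the SMAD list was lower. DESeq2 on all libraries called 0 genes lower in each of these cases.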

How the data were processed

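RNA of sorted PSCs was measured in 12 libraries, 4 replicate cultures each of mono-culture, 2W and 3W co-culture. The authors made QuantSeq 3′ FWD libraries, used STAR to align single-end reads to GRCm38, and obtained counts for Ensembl genes from featureCounts. The deposited values are raw counts, since they are whole numbers with unequal totals, although they are described as normalised. Molecular identifiers and the strand setting are not given in the sources used here, so statements on depth cover counting error only. No 2 libraries agreed within sampling noise. Of the 39179 genes, 20802 had no count.

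Counts were scaled by TMM and filtered by filterByExpr in edgeR 4.0.16 (R 4.3.3). Each pair of cultures was fitted alone with glmQLFit and glmQLFTest, without a block, with Benjamini-Hochberg adjustment across every gene tested. An adjusted p under 0.05 was called. Fold changes use a prior count of 0.125, their SE is the fold change divided by the root of F, and 95% intervals use the t distribution of the fit. Levels are CPM with TMM over all 12 libraries, and log2 CPM uses a prior count of 2. Single values were compared by two-sided exact permutation tests. Fits were tested on simulated data first.

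The 8 genes, the marker lists and the pathway lists were chosen with earlier results of these data known. Named from each pathway list were the called genes of largest change, at most 4 in each direction of a comparison, with a mean log2 CPM above 3, and for each called gene of the 8 its 3 nearest profiles. Positions and overlaps come from GENCODE on GRCm38, where the 8 genes share no exon with other genes. Alternatives were DESeq2 1.42.0 (Wald test), its size factors in edgeR, other filters, all libraries in 1 fit, a replicate block, removal of abundant rRNA-related genes, a log2 fold change above 1 in addition, a prior count of 2, CPM in the permutation tests, and each library left out in turn.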

Additional observations from a re-analysis of the deposited data

Results flagged for a closer look

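Values of 4 libraries were checked for 1 library far from the rest (Dixon's test) in 33 groups, 24 of the 8 genes and 9 of summed markers, of which chance flags about 1 in 20. None of the 24 groups of the 8 genes was flagged. The macrophage marker sum of replicate 4 of 3W-PSCs was 69.6 CPM, where the other 3 libraries had at most 36.7 CPM. The fibroblast marker sum of replicate 2 of 2W-PSCs was 8710 CPM, where the others lay between 8401 and 8412 CPM.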

How the results depend on the processing

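Over the fold changes of the 7 genes tested, 317 values under alternatives kept direction and side of the threshold, 7 passed it anew, 5 lost it and 7 changed sign. The calls of *Pmepa1* and *Skil* in 2W-PSCs and the 6 calls of 3W-PSCs against mono-PSCs kept an adjusted p under 0.05 under all 16 alternatives. With a log2 fold change above 1 in addition, a further alternative, 4 of those 6 were left, without *Smad2* and *Smad3*. In 3W-PSCs against 2W-PSCs, 2 of the 7 genes were called with at least 10 counts in every library, in 1 fit of all libraries and with DESeq2, 0 with that added criterion, and 0 to 3 with 1 library left out. Signs changed only in differences that were not called: *Tgif1* in 2W-PSCs against mono-PSCs (-0.027 with the replicate block, -0.25 to 0.70 with 1 library left out, lowest without replicate 3 of 2W-PSCs), *Ski* in 3W-PSCs against mono-PSCs (-0.16 to 0.021 with 1 library left out, above 0 without replicate 1 of mono-PSCs), and *Pmepa1* in 3W-PSCs against 2W-PSCs (-0.15 to 0.33 with 1 library left out, below 0 without replicate 1, 3 or 4 of 2W-PSCs or replicate 2 of 3W-PSCs). Calls over all genes in 2W-PSCs against mono-PSCs numbered 111, but 177 with no filter, 57 with at least 10 counts in every library, 262 in 1 fit of all libraries, 275 with DESeq2 and 61 to 233 with 1 library left out. With a log2 fold change above 1 also required, 3W-PSCs against mono-PSCs had 1380 in place of 3054, and 3W-PSCs against 2W-PSCs had 672 in place of 1230. The latter had 752 with the replicate block and 497 to 2107 with 1 library left out, most without replicate 2 of 2W-PSCs. The replicate block left 2, 6 and 1 of the 7 genes called. Same-numbered libraries deviated together by correlations of 0.0989 to 0.338 (2W-PSCs and mono-PSCs), 0.00224 to 0.107 (3W-PSCs and mono-PSCs) and -0.05 to 0.155 (3W-PSCs and 2W-PSCs). Libraries of unlike numbers were not compared in this way, so whether the numbers pair the samples was not settled. The main fits used no block. All 12 permutation tests at the smallest p stayed there on CPM. The *Smad3* to *Smad2* ratio kept its direction without each library. The cause of these differences was not tested. Depth limited *Tgfbi*, and with 4 libraries a gene that was not called is not shown to be unchanged.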
